A study of Mus musculus with 30 samples.

Results

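Vcam1, Icam1 and Cd274 are 3 genes for membrane proteins through which tissue cells touch leukocytes, and they were chosen by gene name from the 20093 genes listed in any table of the series. Each of the 3 was listed in all 14 tables and passed the filter on low values in every comparison. The samples were mesenchymal cells freshly isolated from the intestine of C57BL/6 mice that carried ColVI-cre, a Cre recombinase driven by a collagen VI promoter, together with the Rosa mTmG reporter. This reporter turns a cell and its descendants from red (Tomato) to green (GFP) once Cre has acted, so GFP marks present or past activity of the driver, and the driver and reporter were present in every group, controls included. Colon cells of normal mice and of mice given DSS (dextran sulfate sodium, which injures the colon epithelium and causes colitis) were sorted as GFP+ or GFP- or left unsorted. Cells of the normal small intestine were sorted as GFP high, GFP low or GFP-, or left unsorted. Each group had 3 replicates, except the unsorted small intestine, of which replicates 2 and 3 were analysed here. No source used here states the age of the mice or the dose and duration of DSS. No label says whether replicates came from separate animals, so the p-values measure only the spread between these samples, which may be technical.

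VCAM-1, the product of Vcam1, binds the integrin alpha4 beta1 (VLA-4) on lymphocytes, monocytes and eosinophils, and ICAM-1, the product of Icam1, binds the beta2 integrins LFA-1 and Mac-1. On inflamed endothelium these ligands slow and arrest circulating leukocytes, and on fibroblasts and other stromal cells they hold leukocytes within the tissue. PD-L1, the product of Cd274, binds PD-1 on activated T cells and restrains them. All 3 genes are textbook targets of inflammatory cytokines: tumour necrosis factor and interleukin-1 act through NF-kappa B, and interferon-gamma acts in part through IRF1.

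In the deposited tables (mm10) Vcam1 (ENSMUSG00000027962) lay on the minus strand at chr3:116109949-116129688 and Cd274 (ENSMUSG00000016496) on the plus strand at chr19:29367455-29388095. Icam1 (ENSMUSG00000037405), on the plus strand of chromosome 9, was given as 21015960 to 21028797 in the 8 colon tables and as 21015985 to 21028817 in the 6 small intestine tables, so the gene models behind the tables were not the same. Because the libraries read the 3' ends of transcripts, the last exon matters most. In the GENCODE vM21 annotation (GRCm38, the assembly also named mm10) the last exon spans 1089 bases in the main transcript of Vcam1, 1047 bases in that of Icam1 and 2706 bases in that of Cd274. An antisense gene, Gm47079, covers 511 bases of the last exon of Icam1. No source used here states whether reads were counted by strand, so reads of Icam1 and Gm47079 could not be told apart for certain. The antisense genes Gm43109 in Vcam1 and AC119228.1 in Cd274 do not reach the last exon.

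Promoter windows of RefSeq (GRCm38.p6) matched 2 of the 3 genes by symbol, Icam1 and Cd274. They are shown because both genes are known cytokine targets, and of these only Cd274 passed the test of DSS against normal cells. Each sequence runs 5′ to 3′ from 250 bases before the RefSeq start site to 20 bases after it, with matches to the motifs in capitals. Icam1 is shown at chr9:21015690-21015959 and Cd274 at chr19:29367188-29367457, both on the plus strand.
Icam1: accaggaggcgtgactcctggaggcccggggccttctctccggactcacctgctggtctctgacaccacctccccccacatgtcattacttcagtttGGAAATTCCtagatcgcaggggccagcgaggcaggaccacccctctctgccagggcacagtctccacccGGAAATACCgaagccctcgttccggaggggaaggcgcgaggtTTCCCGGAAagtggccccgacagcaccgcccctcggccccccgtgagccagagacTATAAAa
Cd274: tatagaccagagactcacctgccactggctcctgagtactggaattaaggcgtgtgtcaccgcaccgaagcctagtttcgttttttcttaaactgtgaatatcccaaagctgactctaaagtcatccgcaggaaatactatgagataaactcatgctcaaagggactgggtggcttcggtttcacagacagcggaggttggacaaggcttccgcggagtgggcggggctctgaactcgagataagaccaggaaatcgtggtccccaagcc

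5 short motifs were searched on both strands of the 300-base windows, which reach 50 bases after the start site. They were GGNNNTTCC for NF-kappa B, TTCNNNGAA for STAT factors, TGANTCA for AP-1, TATAAA for a TATA box, and an interferon response motif of a pair of GAAA blocks separated by NN. The Icam1 window held 4 matches. GGAAATTCC, 153 to 145 bases before the start site, matched the NF-kappa B pattern on both strands, and GGAAATACC, 84 to 76 bases before it, matched on the minus strand. TTCCCGGAA, 42 to 34 bases before the start site, matched the STAT pattern, and TATAAA lay at bases 14 to 19 after the RefSeq start. The Cd274 window held no match, which says only that these letters are not in this window. Of the 32851 RefSeq windows of this length, 18.5% held the NF-kappa B pattern, 8.3% the STAT pattern, 13.6% TATAAA, 7.81% the AP-1 pattern and 3.44% the interferon response pattern. The matches are descriptions and were not tested as binding sites.

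Values are the authors' normalised counts, rounded to whole numbers, and the small intestine, the colon of normal mice and that of DSS mice each have their own scale. Values of the 12 sorted libraries of the colon were also deposited on a shared scale, called common here, in the 2 tables of DSS against normal cells. Levels are compared within a scale only. From the spacing of the values, library depth was estimated at 1228000 to 4415000 reads. In the sorted colon libraries the summed level of 9 mesenchymal markers was 33342 to 97012 on the common scale, and the pan-leukocyte gene Ptprc stood at 0 to 19. The lymphoid and plasma cell markers summed to 822 to 3878 in normal GFP- libraries (7 listed). They summed to 70 to 360 in normal GFP+ libraries (5 listed). Jchain alone stood at 679 to 3311 and 42 to 336, so some leukocyte RNA was present in sorted libraries too. In the unsorted libraries Ptprc stood at 107 to 169 in normal colon, 197 to 537 in DSS colon and 175 to 269 in small intestine, so leukocyte RNA was present in the unsorted samples, which carry the same mesenchymal label. In bulk samples such as these, fewer cells of a type and less RNA per cell cannot be told apart.

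**Figure D1:**
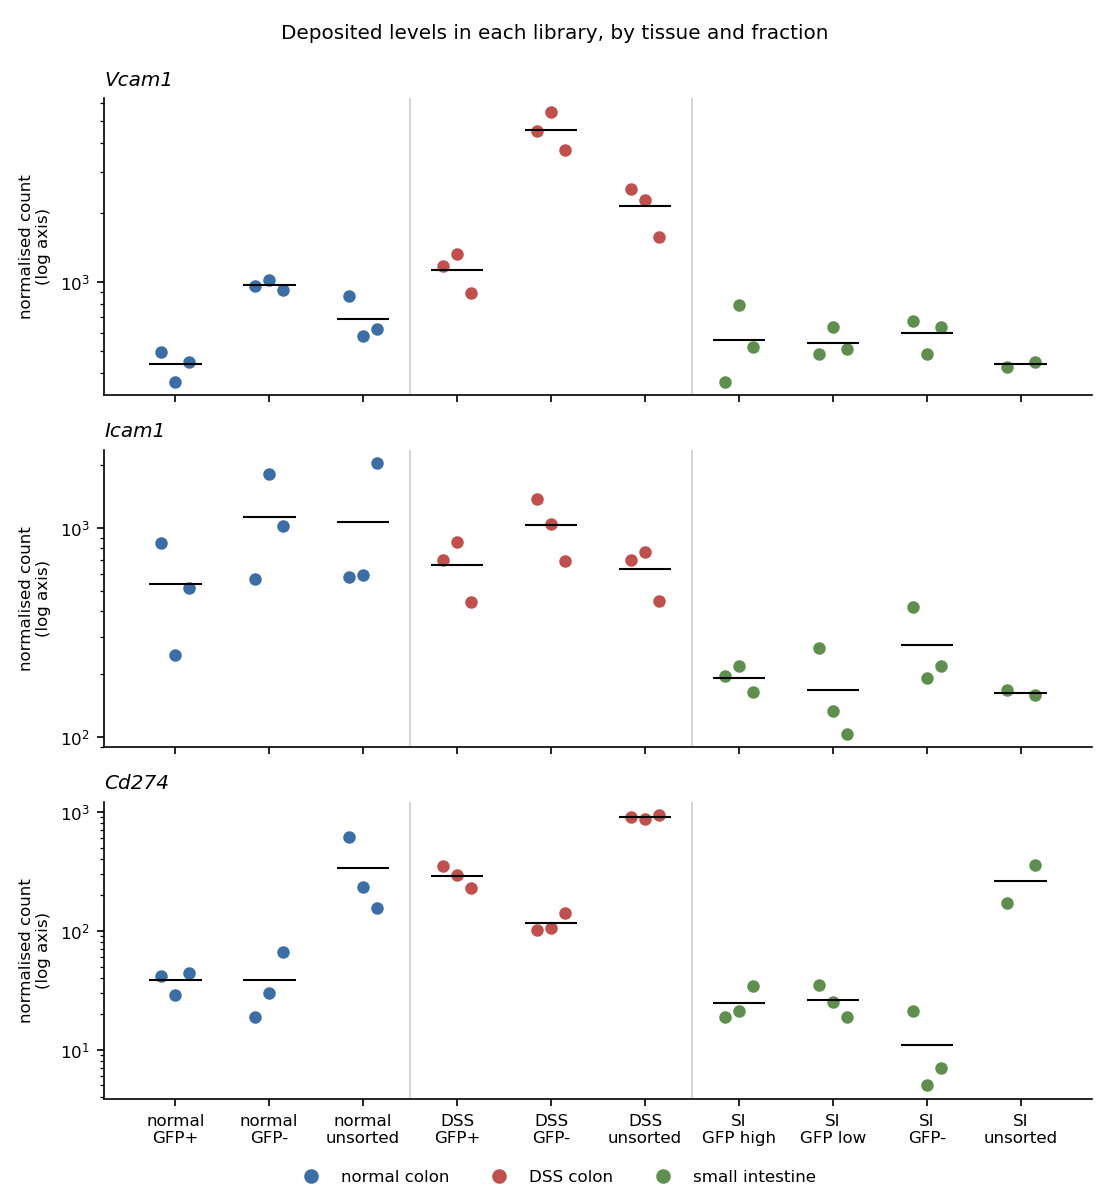
Authors' normalised count (log axis) of Vcam1, Icam1 and Cd274 in each of the 29 libraries, in 10 groups with a line at the mean; colours mark the 3 separate scales, between which heights cannot be compared. Vcam1 in the GFP- cells of the DSS colon (3755 to 5503) lies above the other DSS groups, and Cd274 is higher in the unsorted than in the sorted libraries of each scale.

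DSS treatment came with higher Vcam1 in both colon fractions. The labels number the normal and the DSS colon libraries in separate runs. Treatment and library set therefore coincide, and their effects cannot be told apart in any comparison of DSS with normal cells. In GFP+ cells Vcam1 stood at 413, 308 and 377 in the normal libraries and at 1365, 1550 and 1049 in the DSS libraries on the common scale. In GFP- cells it stood at 804, 861 and 775 in the normal libraries and at 5290, 6485 and 4412 after DSS. The normal and DSS libraries did not overlap in either fraction, and the DSS GFP- libraries were the highest of the 12. Here and below, the share of all genes whose libraries did not overlap was not counted. Overlap or its lack is therefore a description only. The mean rose from 366 ± 53.4 to 1321 ± 253 (SD, n = 3) in GFP+ cells, a 3.58-fold difference (log2 1.84, SE 0.21, limma adjusted p = 0.00012). In GFP- cells it rose from 813 ± 43.8 to 5396 ± 1041 (SD, n = 3), or 6.55-fold (log2 2.71, SE 0.26, limma adjusted p = 9.3e-05). These tests used limma on log2(value + 1) with Benjamini-Hochberg adjustment over all genes tested, and a gene was called at an adjusted p under 0.05.

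Cd274 also rose in both fractions. The GFP+ libraries had 35, 24 and 37 in the normal colon and 412, 343 and 268 after DSS. The GFP- libraries had 16, 25 and 56 in the normal colon and 120, 125 and 165 after DSS. Again the DSS libraries were all above the normal ones, but here the GFP+ libraries reached the higher level. Cd274 rose from 32.0 ± 7.0 to 341 ± 72.0 (SD, n = 3) in GFP+ cells, 10.4-fold on the fitted scale (log2 3.38, SE 0.25, limma adjusted p = 1.7e-06), and ranked 22 by p among 12976 genes. In GFP- cells it rose from 32.3 ± 21.0 to 137 ± 24.7 (SD, n = 3), or 4.65-fold (log2 2.22, SE 0.40, limma adjusted p = 0.0052).

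Icam1 did not pass the test in either fraction. It stood at 712, 207 and 437 in normal GFP+ cells and at 823, 1012 and 519 after DSS. In GFP- cells it stood at 481, 1522 and 858 in the normal colon and at 1618, 1224 and 815 after DSS. Normal and DSS libraries overlapped in both fractions, and the normal libraries of each fraction were spread widely. The log2 difference was 0.91 in GFP+ cells (95% confidence interval -0.12 to 1.95, limma adjusted p = 0.19) and 0.45 in GFP- cells (-0.41 to 1.32, limma adjusted p = 0.49). Without replicate 1 of the normal GFP+ cells, its highest normal library, the GFP+ difference was 1.33 (limma adjusted p = 0.038), so this result turned on 1 library.

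**Figure D2:**
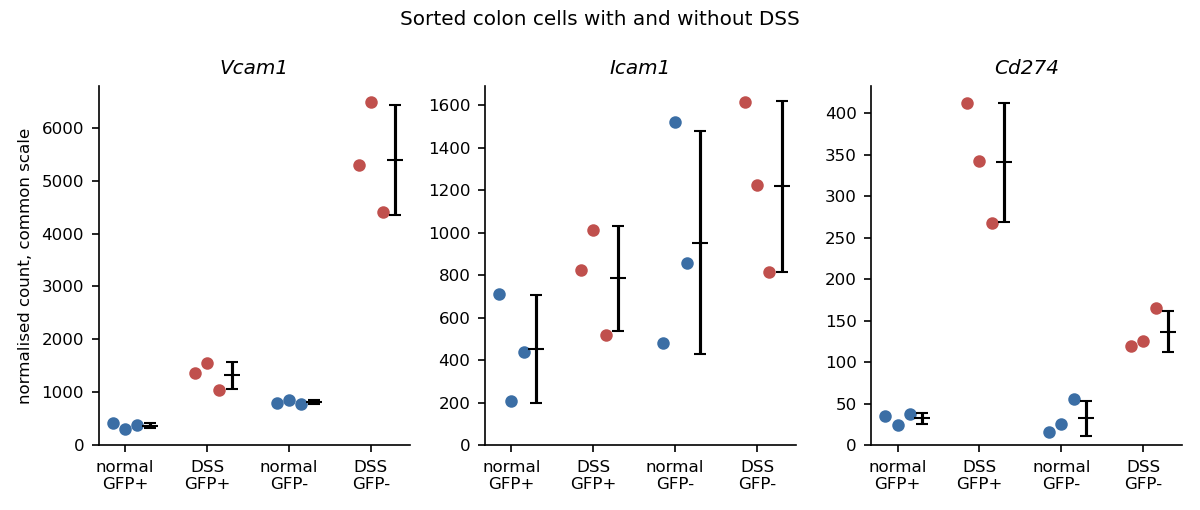
Normalised counts on the common scale for the 12 sorted colon libraries, normal in blue and DSS in red, with mean ± SD (n = 3) beside the points. For Vcam1 and Cd274 every DSS library lies above every normal library of its fraction, while Icam1 overlaps. The share of all genes that separate in this way was not counted.

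Of all genes tested, 19.7% were called in the DSS comparison of GFP+ cells and 10.3% in that of GFP- cells, against 2 of the 3 genes described here in each. Of the genes called, 52.0% were higher after DSS in GFP+ and 58.5% in GFP- cells, and with library totals made equal these shares were 38.5% and 44.1%, while the calls of the 3 genes did not change. In the authors' deposited tables, the log2 fold was 1.85 for Vcam1 and 3.37 for Cd274 in GFP+ cells and 2.73 and 2.05 in GFP- cells. The DESeq FDR in the authors' deposited table was 0.047 for Cd274 in GFP+ cells. It was 1 for Vcam1 in GFP+ cells, 0.192 for Vcam1 in GFP- cells and 0.604 for Cd274 in GFP- cells. The sizes were thus alike, while only Cd274 in GFP+ cells was called both by the authors and in limma. Over the 14 deposited tables the authors' FDR was under 0.05 in 1 table for Vcam1, in 0 for Icam1 and in 8 for Cd274, against 6, 0 and 10 of the 14 comparisons in limma.

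The 2 fractions were then compared in their responses. The response of Vcam1 was smaller in GFP+ than in GFP- cells by 0.87 on the log2 scale (interval of the difference -1.55 to -0.19), with an unadjusted limma p of 0.015 and an adjusted p of 0.52. The response of Cd274 was larger in GFP+ cells by 1.16 (interval 0.11 to 2.21), with an unadjusted limma p of 0.033 and an adjusted p of 0.57. The responses of Icam1 differed by 0.46 (interval -0.95 to 1.87, limma adjusted p = 0.89). None of the 3 differences passed, and 7 of 13488 genes, or 0.0519%, did.

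Markers of other cell types also moved with DSS in the same libraries. On the common scale the 14 listed myeloid markers summed to 142 to 383 in the normal and 362 to 866 in the DSS libraries of GFP+ cells, and to 177 to 384 and 547 to 848 in those of GFP- cells. Of 11 markers tested, 4 rose in GFP+ cells and 2 in GFP- cells, among them the neutrophil genes S100a8 and S100a9. Over all genes tested, 19.7% were called in GFP+ and 10.3% in GFP- cells. S100a9 was at 0 in all normal GFP+ libraries and at 27 to 113 after DSS. The defining gene Ptprc stayed at 1 to 5 in normal and 0 to 19 in DSS GFP+ cells, and at 3 to 10 and 4 to 7 in GFP- cells. Lymphoid and plasma cell markers summed to 822 to 3878 in normal and 269 to 733 in DSS GFP- libraries. In GFP+ libraries the sums were 70 to 360 and 43 to 195. Of 4 such markers tested in each fraction 0 passed, with medians of -1.43 in GFP- and 0.54 in GFP+ cells. The sum of 11 endothelial markers stood between 277 and 313 in normal GFP+ libraries and between 419 and 515 in DSS GFP+ libraries, and at 374 to 594 and 373 to 614 in GFP- libraries. Of 9 endothelial markers tested in GFP+ cells, 1 rose (Esam, from 75.3 to 243.7) and 1 fell (Tek, from 30.3 to 10.3), with a median log2 difference of 0.02, and 0 of 9 passed in GFP- cells. Of 8 pericyte and smooth muscle markers, 3 rose and 0 fell in GFP+ cells (median 0.94; 3 and 2 with library totals made equal). Among those that rose was the pericyte gene Rgs5 (123 ± 71.0 to 1331 ± 248, SD, n = 3; log2 3.55). The smooth muscle genes Acta2 (2180 to 3412 in normal, 1369 to 1986 in DSS libraries) and Myh11 (145 to 375, 105 to 111) stood lower after DSS. Neither was called. In GFP- cells 2 of the 8 markers rose and 1 fell (median 0.52). None of 8 epithelial markers passed in GFP- cells, where their median was 1.57 and the sum of the 10 listed was 30 to 351 in normal libraries and 194 to 724 in DSS libraries, and 1 of 5 fell in GFP+ cells. In GFP+ cells 6 of 9 mesenchymal markers fell and they summed to 64479 to 72705 in the normal and 33342 to 37038 in the DSS libraries. In GFP- cells 1 of 9 fell, and the sum was 69466 to 96710 and 72713 to 97012. The part of these shifts in the values of Vcam1 and Cd274 was not tested.

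Vcam1 was called in limma between the sorted fractions of the colon. On the scale of the normal colon Vcam1 stood at 955, 1020 and 921 in GFP- cells, at 494, 367 and 448 in GFP+ cells, and at 862, 578 and 621 in unsorted cells. The order was thus GFP-, unsorted, GFP+, and each sorted fraction missed the threshold against unsorted cells. GFP+ cells were 2.22-fold lower than GFP- cells (log2 -1.15, SE 0.24, limma adjusted p = 0.016). This call was lost without replicate 2 of the GFP- cells (limma adjusted p = 0.082), replicate 2 of the GFP+ cells (0.066) or replicate 3 of the GFP+ cells (0.062). The fold kept between -1.25 and -1.03 on the log2 scale whichever library was left out. In this comparison 5.98% of all genes were called.

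On the scale of the DSS colon the same order held for Vcam1 with wider gaps. Vcam1 stood at 4506, 5503 and 3755 in GFP- cells, at 2544, 2269 and 1561 in unsorted cells, and at 1167, 1319 and 896 in GFP+ cells, with no overlap between the 3 groups. GFP+ cells were 4.07-fold lower than GFP- cells (log2 -2.02, SE 0.20, limma adjusted p = 6.6e-06), where 17.1% of all genes were called. GFP- cells were above unsorted cells by 1.12 (limma adjusted p = 0.0068), and GFP+ cells differed from them by -0.90 (limma adjusted p = 0.013). The last call was lost without replicate 3 of the GFP+ cells (log2 -0.75, limma adjusted p = 0.076). The authors' DESeq FDR was 0.048 for GFP+ against GFP- cells. It was 0.337 for GFP- and 0.458 for GFP+ against unsorted cells.

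Cd274 was not called between the fractions of the normal colon and was called between those of the DSS colon. In the normal colon it stood at 42, 29 and 44 in GFP+ cells and at 19, 30 and 66 in GFP- cells (log2 0.16, interval -0.82 to 1.14, limma adjusted p = 0.91). In the DSS colon it stood at 352, 292 and 229 in GFP+ cells and at 102, 106 and 141 in GFP- cells, without overlap. GFP+ cells were 2.48-fold higher there (log2 1.31, SE 0.21, limma adjusted p = 0.00042). The authors' deposited table gave a log2 fold of 1.32 with an FDR of 0.434 for the same comparison. In DSS colon Vcam1 and Cd274 thus stood in opposite order in the sorted fractions, Vcam1 higher in GFP- and Cd274 higher in GFP+ cells.

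Icam1 was not called between the colon fractions. In the normal colon it stood at 572, 1804 and 1019 in GFP- cells, 851, 246 and 519 in GFP+ cells and 584, 597 and 2037 in unsorted cells, and all 3 groups overlapped. GFP+ differed from GFP- cells by -1.09 on the log2 scale (interval -2.17 to -0.01, limma adjusted p = 0.28). In the DSS colon it stood at 1378, 1039 and 693 in GFP- cells, 703, 861 and 443 in GFP+ cells and 703, 769 and 448 in unsorted cells. The GFP+ minus GFP- difference was -0.63 (interval -1.22 to -0.03, limma adjusted p = 0.15), and without replicate 3 of the GFP- cells it was -0.89 (limma adjusted p = 0.029). In the 14 comparisons within a scale Icam1 was called in 0, with unadjusted intervals that left out 0 in 3.

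In the normal small intestine none of the 3 genes was called between the sorted fractions. Vcam1 stood at 366, 791 and 520 in GFP high, 486, 637 and 507 in GFP low and 673, 483 and 637 in GFP- cells. Icam1 stood at 197, 218 and 164, at 267, 134 and 104, and at 418, 192 and 218 in the same order. Cd274 was low throughout, at 19, 21 and 34 in GFP high, 35, 25 and 19 in GFP low and 21, 5 and 7 in GFP- cells, where the value of 5 stood for about 3 reads. The fractions overlapped in all 9 comparisons of a gene between a pair of fractions, and the limma adjusted p ran from 0.38 to 0.99. The interval for Vcam1 in GFP high against GFP- cells was -0.91 to 0.60. In the normal colon the interval for GFP+ against GFP- cells was -1.68 to -0.63. These intervals overlapped, and the tissues were not tested against each other. Few genes were called in these comparisons at all, 0.894% for GFP high against GFP-, 0.675% for GFP low against GFP- and 0.384% for GFP high against GFP low.

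Unsorted cells had more Cd274 than any sorted fraction. In the normal colon the unsorted libraries had 616, 233 and 155, in the DSS colon 902, 874 and 940, and in the small intestine 172 and 354. No sorted library of the same scale reached these values. The log2 difference of Cd274 from unsorted cells was -2.87 in GFP+ and -3.03 in GFP- cells of the normal colon, and -1.66 and -2.96 in those of the DSS colon. All 4 were called in limma, as were the small intestine differences of -3.32 in GFP high, -3.22 in GFP low and -4.61 in GFP- cells. With 1 of the 2 unsorted small intestine libraries left out, the calls for GFP high and GFP- cells were lost either way, and the call for GFP low cells was lost without replicate 3 (limma adjusted p = 0.06). The authors' deposited tables had an FDR under 0.05 for Cd274 in all 7 comparisons with unsorted cells.

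Large shares of all genes differed from the unsorted cells. The share called was 21.8% for GFP+ and 18.8% for GFP- cells of the normal colon, 37.1% and 33% for those of the DSS colon, and 17.2%, 22.8% and 11.5% for GFP high, GFP low and GFP- cells of the small intestine. In the same 7 comparisons Vcam1 was called in 2, both in the DSS colon, and Icam1 in 0. The unsorted small intestine libraries had 426 and 447 for Vcam1 and 168 and 159 for Icam1, within the range of the sorted fractions. No table set unsorted DSS against unsorted normal colon, so a DSS response of unsorted cells was not tested.

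Markers of 4 other cell types set the unsorted libraries apart in the same direction as Cd274. Each sum holds only entries with deposited values, and their number differed between libraries. For lymphoid and plasma cell markers it was 10 in unsorted and 7 in sorted normal colon, and 9 and 4 in DSS colon. For myeloid markers, a list of 15, it was 15 and 13 in normal colon and 16 and 14 in DSS colon. It was 16 throughout the small intestine, so a symbol matched more than 1 entry. The summed level of the myeloid markers was 13990 to 20990 in unsorted and 168 to 458 in sorted normal colon, and 16998 to 27665 against 309 to 742 in the DSS colon. In the small intestine it was 11562 to 18256 in unsorted and 169 to 914 in sorted libraries. Lymphoid and plasma cell markers summed to 11128 to 45791 in unsorted and 84 to 4605 in sorted normal colon, and to 4716 to 6468 against 38 to 617 in the DSS colon. Endothelial markers summed to 5323 to 6286 in unsorted and 333 to 707 in sorted normal colon, and to 3220 to 3400 against 317 to 522 in the DSS colon. Epithelial markers summed to 2135 to 19766 in unsorted and 33 to 477 in sorted normal colon, and to 2764 to 7276 against 78 to 617 in the DSS colon. In unsorted normal colon replicates 1, 2 and 3, Cd274 stood at 616, 233 and 155, the lymphoid sum at 45791, 12992 and 11128, and the myeloid sum at 20990, 13990 and 20494. The part of each of these cell types in the level of Cd274 was not tested.

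**Figure D3:**
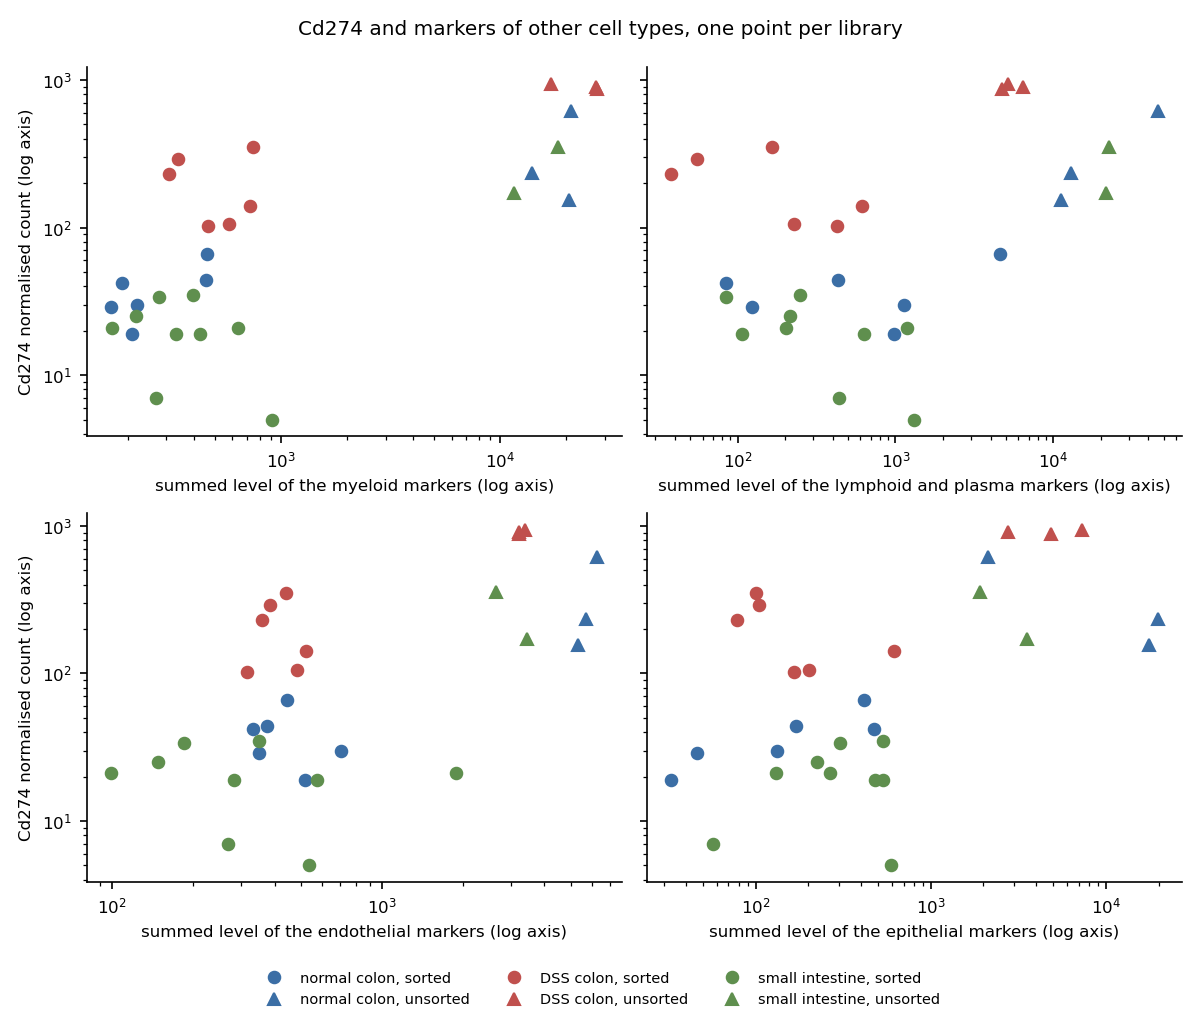
Cd274 normalised count against the summed level of the myeloid, lymphoid and plasma, endothelial and epithelial markers, all on log axes, one point for each of the 29 libraries (circles sorted, triangles unsorted, colours the 3 scales). Within each scale the unsorted libraries lie to the right of the sorted ones for all 4 marker lists, for example at myeloid sums of 11562 or more against at most 914.

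**Figure D4:**
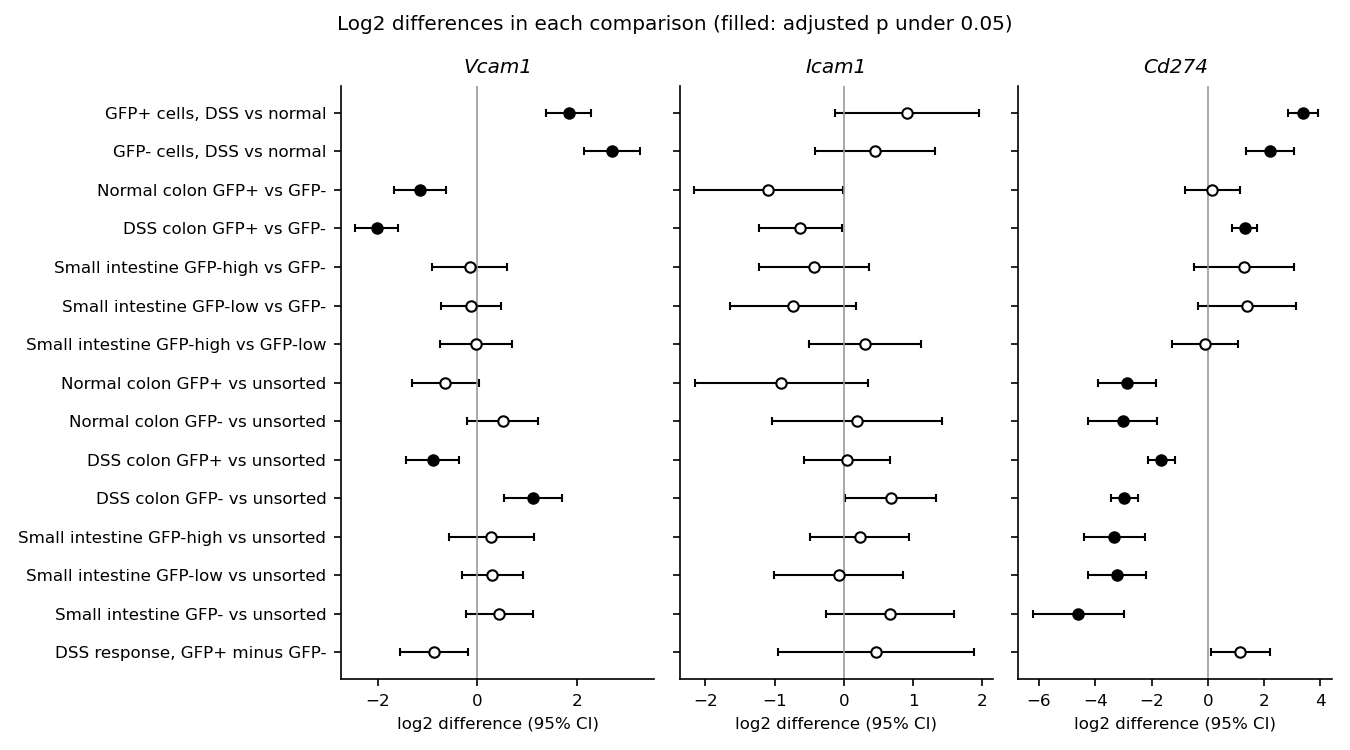
Log2 difference with its 95% confidence interval for each gene in the 14 comparisons and in the difference of DSS responses; filled points passed an adjusted p of 0.05 in limma. Vcam1 has 6 filled points, Icam1 0 and Cd274 10 among the 14 comparisons, and each panel has its own axis range.

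The closest relatives of the 3 genes stood low in the sorted cells. Icam2, an ICAM of endothelium and leukocytes, stood at 0 to 25 in the sorted and at 41 to 119 in the unsorted libraries, each on its own scale. Madcam1, the gut vascular ligand of the integrin alpha4 beta7, stood at 2 to 29 in sorted colon and at 58 to 207 in unsorted colon. In the small intestine Madcam1 spanned 3 to 274 in GFP- cells alone. Pdcd1lg2, which encodes PD-L2, the other ligand of PD-1, stood at 0 to 4 in the sorted normal colon and at 3 to 29 in the unsorted libraries.

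Of the leukocyte receptors of these ligands, 4 of those measured were low in the sorted libraries. Itgb2, the beta2 chain of the ICAM-1 receptors, stood at 0 to 6 in sorted and at 25 to 148 in unsorted libraries. Itgal, the alpha chain of LFA-1, stood at 0 to 46 in sorted and at 91 to 319 in unsorted libraries, and Itga4, the alpha4 chain of VLA-4, at 5 to 75 and at 82 to 179. Pdcd1, which encodes PD-1, stood at 0 to 13 in sorted colon and at 14 to 45 in unsorted libraries. Itgb7, the beta chain that pairs with alpha4 to bind MAdCAM-1, was not low in the colon, with 52 to 236 in sorted and 124 to 279 in unsorted libraries. Itgb1, the beta chain of VLA-4, which many cell types carry, was the highest of these in every sorted group, with 1258 to 3138 in sorted and 1140 to 2941 in unsorted colon. Itgb7 rose with DSS in GFP+ cells to 253 ± 21.7 (SD, n = 3; log2 1.34, limma adjusted p = 0.00092), and in GFP- cells it had 93.0 ± 16.7 and 134 ± 65.3 (limma adjusted p = 0.54).

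Adhesion ligands, a list that includes Vcam1 and Icam1, moved in both directions in GFP+ cells. Of 23 tested, 5 rose and 7 fell with DSS in GFP+ cells (52.2% called, against 19.7% of all genes), and 6 rose and 1 fell of 22 in GFP- cells (31.8%, against 10.3%), Vcam1 among those that rose in both. The median log2 difference of this list was 0.58 in GFP+ and 0.32 in GFP- cells, against -0.01 and -0.02 over all genes tested. After Vcam1, the largest changes among the genes called in GFP+ cells were those of Esam, a junction protein of endothelium and platelets (243.7 ± 32.2 after DSS against 75.3 ± 31.0, SD, n = 3; log2 1.75), and Cx3cl1, the membrane-bound chemokine fractalkine (log2 1.74). Among those called in GFP- cells they were F11r, the junctional adhesion molecule JAM-A (log2 1.73), and Cxcl16, a membrane-bound chemokine (log2 1.41). The 7 that fell in GFP+ cells, named after their values were seen, were Thy1, Cd34, Ncam1, Cd47, Cd44, Jam2 and Alcam, and the 1 that fell in GFP- cells was Cd34. With library totals made equal, 5 rose and 8 fell in GFP+ cells, and 5 rose and 2 fell in GFP- cells.

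The B7 family and other co-signalling ligands include Cd274. Of 14 tested in GFP+ cells, 2 rose and 1 fell, or 21.4% called, near the 19.7% of all genes. They were Cd274, Cd40 (131 ± 21.7 after DSS against 62.7 ± 17.0, SD, n = 3; log2 1.08), a receptor for CD40 ligand on T cells, and Icosl, the ligand of the T cell co-stimulator ICOS, which fell by 0.79 on the log2 scale. Cd40 and Icosl did not pass in GFP- cells (log2 -0.20 and 0.17). Of 12 tested in GFP- cells, 2 rose (16.7%, against 10.3% of all genes), Cd274 and Nectin2, a ligand of DNAM-1 and TIGIT on T and NK cells (537.7 ± 82.9 against 120.7 ± 35.5, SD, n = 3; log2 2.18). The log2 difference of Nectin2 in GFP+ cells was 0.70 (limma adjusted p = 0.30). The list's median was -0.01 in GFP+ and 0.17 in GFP- cells.

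The next list holds receptors, kinases and transcription factors known to act upstream of the 3 genes. It also holds feedback genes of NF-kappa B such as Tnfaip3. Of 20 tested, 4 rose and 0 fell in GFP+ cells, a share near the 19.7% called among all genes, and 8 rose and 0 fell in GFP- cells, where 10.3% of all genes were called. The medians were 0.39 and 0.95. Rela, the p65 subunit of NF-kappa B, rose from 306 ± 43.5 to 751 ± 171 (SD, n = 3; log2 1.27) in GFP+ cells, and its difference was 0.99 in GFP- cells (limma adjusted p = 0.065). Ltbr, the lymphotoxin beta receptor, rose by 1.07 on the log2 scale in GFP+ and by 1.75 in GFP- cells. Tnfaip3, an NF-kappa B target that dampens the pathway, rose by 2.94 in GFP- cells, and its difference was 2.29 in GFP+ cells (limma adjusted p = 0.11). Irf1, an interferon-induced transcription factor, rose by 2.33 in GFP- cells, and its difference was 2.54 in GFP+ cells (limma adjusted p = 0.058). No gene of this list passed the test of the difference between the fractions. With library totals made equal, 4 and 6 rose.

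Another list holds genes that act on the shedding or stability of the 3 proteins, among them an inhibitor of shedding. Its calls were all upwards, which gives no common direction of effect on the proteins. Of 13 tested, 4 rose and 0 fell in GFP+ cells (30.8% called, against 19.7% of all genes). In GFP- cells 3 rose and 0 fell (23.1%, against 10.3%). The medians were 0.32 in GFP+ and -0.08 in GFP- cells. Adam17, the protease that sheds VCAM-1 and ICAM-1 from the cell surface, rose in GFP- cells from 606 ± 48.2 to 1465 ± 270 (SD, n = 3; log2 1.26), and its partner Rhbdf2 rose by 1.36 in GFP+ and 1.90 in GFP- cells. Cops5, a deubiquitinase reported to stabilise PD-L1, rose by 0.88 and 0.95. Timp3, an inhibitor of ADAM17 that lies within Syn3 on the other strand, rose in GFP+ cells from 1093 ± 51.8 to 7103 ± 409 (SD, n = 3; log2 2.70, limma adjusted p = 1.4e-06). It stood at 2301 ± 335 and 3071 ± 677 in GFP- cells (limma adjusted p = 0.37).

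Genes of stromal cells that organise lymphoid tissue are another list, which shares Ltbr with the one of receptors. Of 9 tested in each fraction, 5 rose in GFP+ (55.6% called, against 19.7% of all genes) and 4 in GFP- cells (44.4%, against 10.3%). In either fraction 0 fell, and 4 and 5 did not pass, with medians of 0.999 and 1.19. Cxcl13, the chemokine that draws B cells, rose from 36.3 ± 12.7 to 1135 ± 380 (SD, n = 3) in GFP+ cells and from 105 ± 34.8 to 1486 ± 320 in GFP- cells. Ccl19, a chemokine for CCR7-bearing cells whose near-identical copies in the mouse make its counts uncertain, stood at a mean of 0.333 in normal and 44.3 in DSS GFP+ cells, and at 6.0 and 61.7 in GFP- cells. Tnfsf11, the cytokine RANKL, stood at 1.33 and 23.3 in GFP+ cells. The leukocyte receptor list had 2 of 7 that rose in GFP+ cells, Itgam and Itgb7, and 0 of 7 in GFP- cells. With library totals made equal, 2 of the 6 receptors then tested rose and 2 fell in GFP+ cells.

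**Figure D5:**
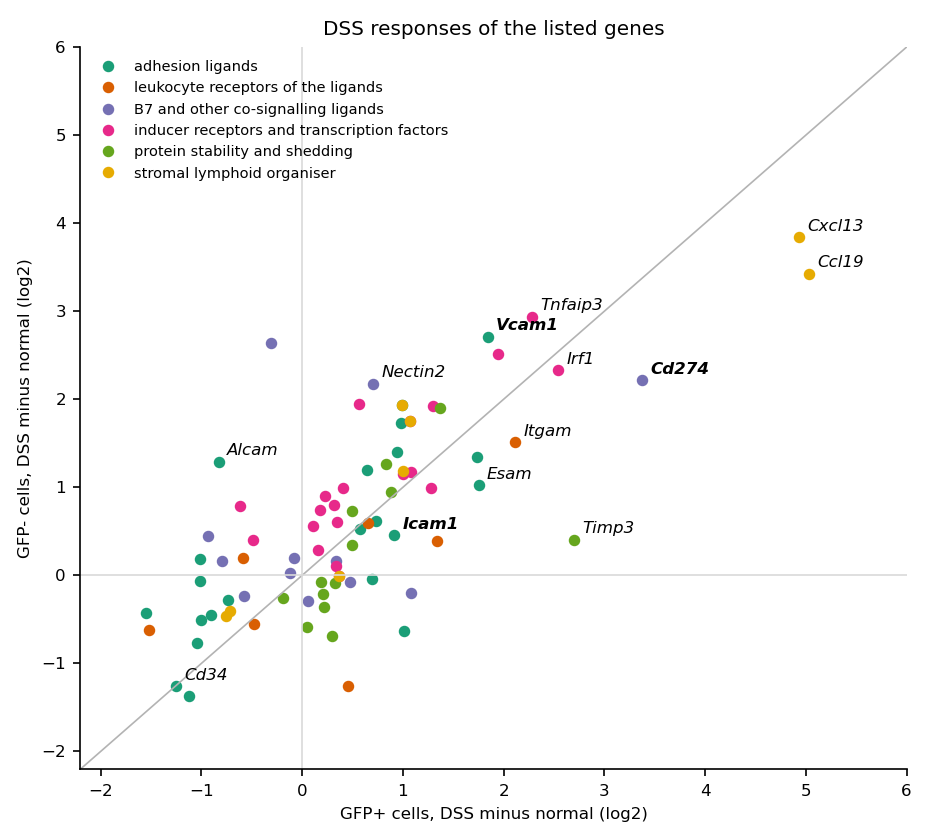
Log2 difference of DSS minus normal cells in GFP+ (horizontal) and GFP- (vertical) colon cells for each gene of the 6 lists tested in both, with a line of equal response; names mark the genes described in the text. Vcam1 (1.84, 2.71) lies above the line and Cd274 (3.38, 2.22) below it, and the differences of the responses did not pass the adjusted test.

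The lists were also counted in the comparisons between fractions. Between GFP+ and GFP- cells, 5.98% of all genes tested were called in the normal colon and 17.1% in the DSS colon. In the normal colon 3 of 23 adhesion ligands were higher and 3 lower in GFP+ than in GFP- cells, and in the DSS colon 4 of 21 were higher and 6 lower. Of the co-signalling ligands 1 of 13 was higher in GFP+ cells of the normal colon, while in the DSS colon 4 of 13 were higher and 4 lower. Of the 20 genes in the list of receptors, transcription factors and feedback genes, 1 was higher in normal GFP+ cells and 4 were lower in DSS GFP+ cells. Pericyte and smooth muscle markers moved with the sort, with 2 of 8 higher in normal and 6 of 8 higher in DSS GFP+ cells, and 3 of 4 lymphoid and plasma cell markers were lower in normal GFP+ cells. In the DSS colon 5 of 8 epithelial, 3 of 6 endothelial, 2 of 3 lymphoid and plasma cell and 5 of 9 mesenchymal markers were lower in GFP+ than in GFP- cells, and 1 endothelial and 1 mesenchymal marker were higher. In the normal colon 2 of 9 endothelial and 2 of 9 mesenchymal markers were lower and 1 mesenchymal marker was higher in GFP+ cells. The part of these in the order of Vcam1 and Cd274 across the fractions was not tested.

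The genes whose levels ran closest to each of the 3 were ranked by Pearson's r of log2(value + 1) over the 12 sorted colon libraries, among 13487 genes. These libraries form 4 groups on 1 scale, so r mixes differences between groups with the spread within them and is given as a description. The genes were picked on these same libraries, which favoured DSS responses and group orders like those of the 3 genes. Such likeness is no separate evidence. Closest to Vcam1 were Ptx3, the secreted pentraxin 3 (r = 0.986), Il17ra, a chain of the interleukin-17 receptor (0.977), and Ccl2, the monocyte chemokine (0.971). Their log2 differences with DSS were 1.86, 1.29 and 3.18 in GFP+ and 3.24, 1.81 and 3.29 in GFP- cells, all called in limma. Mean Ptx3 in the order normal GFP+, normal GFP-, DSS GFP+ and DSS GFP- was 46.3, 148.7, 171.7 and 1419, the same order as Vcam1.

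Closest to Cd274 were Bahd1, a chromatin protein (r = 0.980), Cxcl11, an interferon-induced chemokine (0.976), and Daxx, a histone chaperone (0.972). Their log2 differences with DSS were 1.16, 4.95 and 1.19 in GFP+ and 0.83, 3.76 and 1.26 in GFP- cells. All were called except that of Bahd1 in GFP- cells (limma adjusted p = 0.056). Cxcl11 had means of 2 and 1 in normal GFP+ and GFP- cells and of 83.3 and 24.7 after DSS, so it too stood higher in DSS GFP+ cells. Closest to Icam1 were Dusp8, a phosphatase of MAP kinases (0.967), Atp6v1h, a subunit of the vacuolar proton pump (0.915), and Ppif, cyclophilin D of mitochondria (0.912), and like Icam1 none of these was called in either DSS comparison. Between the 3 genes themselves r was 0.687 for Vcam1 and Icam1, 0.573 for Vcam1 and Cd274 and 0.356 for Icam1 and Cd274, and Icam1 ranked 930 among the genes most like Vcam1.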

How the data were processed

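RNA of intestinal mesenchymal cells was profiled by 3' sequencing on an Ion Torrent instrument, per the labels' protocols, and the submitters' processing notes name mm10, TopHat2, Bowtie2 and DESeq. Tool versions, the counting program and the annotation were not named there. 14 tables of 15019 to 18042 genes were used, with 29 of the 30 labelled libraries. The deposited score of each library is a read count that the authors normalised and rounded, per the file headers. DESeq p-values with their FDRs and log2 folds of group means, both made by the authors, stand beside them. A further 162 columns of per-library values in other forms were not used. Depth was estimated from the spacing of the low values, which was not resolved in 4 libraries. No pair of libraries held identical values.

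Scores were tested as log2(value + 1) with limma 3.58.1 in R 4.3.3 (trended, robust variance), for genes with a mean of 10 or more in 1 of the groups compared, with Benjamini-Hochberg adjustment. The difference of DSS responses was an interaction over the 12 sorted colon libraries. The limma script was tested on simulated data. Alternatives were a pseudocount of 5, no filter, equal library totals, limma without trend, a replicate block, all groups of a scale, and leaving out each library. Named genes were the 3 genes, their close relatives and receptors, up to 3 called genes of each list with the largest change in each DSS response, and the 3 genes most alike. 1 gene that this rule named is not reported here. The genes and lists were chosen with earlier results of these data known. The design was written for counts or normalised values, and the test for normalised values was used. Confidence intervals are 95%.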

Additional observations from a re-analysis of the deposited data

Results flagged for a closer look

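2 genes of the lists differed between the fractions in their DSS response by the test of the difference itself. Of all 13488 genes tested, 7 passed (0.0519%). The lists were chosen with earlier results of these data known, so these 2 calls are no separate evidence. Alcam, an adhesion molecule that binds CD6 on T cells, stood in GFP+ cells at 173.7 ± 19.9 in normal and 97.7 ± 13.4 in DSS libraries, and in GFP- cells at 24.3 ± 3.06 and 61.0 ± 7.0 (SD, n = 3). The difference of its responses was -2.12 on the log2 scale (SE 0.32, limma adjusted p = 0.015). Timp3 had a difference of responses of 2.29 (SE 0.32, limma adjusted p = 0.0069), with its levels given in the report. Neither Vcam1, Icam1 nor Cd274 passed this test.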

How the results depend on the processing

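Of 546 repeats of the tests of the 3 genes under other settings, 515 kept direction and side of the threshold, 9 lost the call, 4 gained it and 18 changed sign, all 18 in differences that were not called. The 2 DSS calls of Vcam1 and of Cd274 held in every repeat. Equal library totals moved the median of all genes with DSS to -0.13 in GFP+ and -0.14 in GFP- cells, from -0.01 and -0.02, and turned the difference of Vcam1 between GFP high and GFP low cells to 0.0234 and that of Icam1 between DSS GFP+ and unsorted cells to -0.0452. The causes of the changes listed here were not tested. Depth limits Cd274 most, since its lowest value stood for about 3 reads.

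The replicate numbers were not shown to pair samples: deviations of same-numbered libraries correlated at -0.297 to 0.363, and in no comparison were all pairs over 0.1. In GFP high against GFP low cells every same-numbered pair (0.0777 to 0.23) exceeded every other pair (at most 0.0633), a hint from the data only. With the replicate block Icam1 passed in DSS GFP+ against GFP- cells (log2 -0.63, limma adjusted p = 0.021) and in DSS GFP- against unsorted cells (0.68, limma adjusted p = 0.014). The block changed no other call of the 3 genes. It changed the number of genes called to 43 for GFP low against GFP- (84 without it), 91 for GFP high against GFP low (47) and 845 for small intestine GFP- against unsorted cells (1543).

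With all groups of a scale in the fit, 2068 genes were called for DSS in GFP- cells, 216 for GFP high against GFP-, 21 for GFP high against GFP low, and 1071 and 1309 for GFP high and GFP low against unsorted cells. Limma without trend or robust variance called 21 for GFP high against GFP-, 960 for small intestine GFP- against unsorted, 0 for GFP low against GFP- (1884 at an unadjusted p under 0.05) and 0 for GFP high against GFP low (964 unadjusted). For GFP low against GFP-, a pseudocount of 5 called 143 and equal totals 44. A pseudocount of 5 called 11 in the difference of DSS responses.

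Leaving out 1 library at a time, the genes called ranged from 1253 to 2611 for DSS in GFP+ cells (1443, 1253 and 1569 without DSS replicates 1, 2 and 3). For DSS in GFP- cells they ranged from 360 to 1882 (360 and 477 without DSS replicates 2 and 3, 704 without normal replicate 2). They ranged from 454 to 888 for GFP+ against GFP- in normal colon (461 without GFP- replicate 2, 514 and 454 without GFP+ replicates 1 and 3) and from 1431 to 2040 in DSS colon (1431 without GFP+ replicate 1). In small intestine the ranges were 24 to 104 for GFP high and 6 to 76 for GFP low against GFP-, and 14 to 52 between these. Against unsorted cells they were 2020 to 4168 for normal GFP+, 1554 to 3367 for normal GFP-, 0 to 2524 for GFP high, 210 to 2983 for GFP low and 0 to 1627 for small intestine GFP-. Both counts of 0 came without unsorted replicate 2 (2469 and 1955 at an unadjusted p under 0.05 in limma). The difference of DSS responses had 2 to 15.

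The log2 differences of Vcam1 then ranged from -1.25 to -1.03 for normal GFP+ against GFP-, -1.11 to -0.75 for DSS GFP+ against unsorted, -0.44 to 0.12 for GFP high against GFP-, -0.31 to 0.25 for GFP high against GFP low and -0.00034 to 0.55 for GFP high against unsorted cells. Those of Icam1 ranged from 0.44 to 1.33 for DSS in GFP+ cells, -0.89 to -0.36 for DSS GFP+ against GFP-, -0.22 to 0.78 for normal GFP- and -0.19 to 0.32 for DSS GFP+ against unsorted, -0.47 to 0.21 for GFP low against unsorted, and -0.0151 to 0.88 for the difference of DSS responses. Those of Cd274 ranged from -0.24 to 0.64 for normal GFP+ against GFP-, -0.34 to 0.13 for GFP high against GFP low, and -3.83 to -2.80, -3.74 to -2.70 and -5.16 to -4.09 for GFP high, GFP low and GFP- against unsorted small intestine, where 1 unsorted library is left and is assumed to vary like the other groups.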
